A study of Mus musculus with 18 samples.

Results

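The comparison is of the cerebral cortex with the hippocampus in wild-type mice. It took the 3 arrays labelled wild-type cortex and the 3 labelled wild-type hippocampus, of 18 arrays in the series, and every probe detected at p under 0.05 on 3 or more of those 6 arrays. That left 14153 of the 25697 probes on the array, for 9727 of its 16590 named genes. The study put cortex, hippocampus and hypothalamus of wild-type and T1R3 knockout (T1R3KO) mice on Illumina bead arrays, which carry short gene-specific probes on beads and read labelled RNA bound to them as brightness. T1R3 is the taste receptor subunit encoded by Tas1r3, which senses sweet and umami tastants together with its partner subunits. All animals were male, C57BL/6J by strain label and 4 to 5 months old. The wild-type mice were C57BL/6J, and the knockout line had been bred to that strain for 4 generations or more, per the series' design text. Each of the 6 groups held 3 animals with 1 array each, 18 arrays in all, and each array took total RNA of 1 dissected region. The sample labels do not say whether arrays of different regions came from the same mice. The sources used here do not give the lines of dissection, or whether the cortex held one cortical area or several.

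Both regions are forebrain cortex built around glutamatergic pyramidal neurons with a smaller number of GABAergic interneurons. The neocortex stacks its projection neurons in layers that differ in their targets and in the transcription factors they keep. The hippocampus has a simpler sheet divided into the dentate gyrus, whose granule cells send mossy fibres to area CA3, and areas CA3, CA2 and CA1 in series, with new granule cells still born in the adult dentate gyrus. It borders the lateral ventricle, where the choroid plexus makes cerebrospinal fluid and ciliated ependymal cells line the wall. In tissue RNA, fewer cells of a type and less RNA per cell cannot be told apart.

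Some arrays stood apart from the rest of their group by marker genes of neighbouring tissue. Hippocampus arrays 2 and 3 were high in choroid plexus genes. The summed linear intensity of the 8 tested choroid plexus markers was 4053, 53872 and 58612 on hippocampus arrays 1, 2 and 3, and 1983, 1091 and 1320 on cortex arrays 1, 2 and 3. The 6 tested ependymal markers summed to 1727, 3770 and 3964 on the hippocampus arrays and 1031, 991 and 868 on the cortex arrays. Cortex array 2 was high in striatal and hypothalamic genes. The 14 striatal markers summed to 12635, 19887 and 14116 on the cortex arrays and 8513, 9451 and 11862 on the hippocampus arrays, and the 8 hypothalamic markers to 4082, 9057 and 4542 and 7602, 7643 and 7893. The part these markers play in other differences was not tested, and leading counts are given below with and without those arrays. Mean signal ran from 826 to 1088 over the 6 arrays and the share of probes detected from 53% to 55.6%.

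Cortex and hippocampus differed widely. At an adjusted p under 0.05 in limma, 2779 of the 14153 probes were called, a share of 19.6%, with 1485 higher in cortex (10.5%) and 1294 higher in hippocampus (9.14%). Taking the brightest probe for each gene, 2033 of 9727 genes were called (20.9%), and 1095 of 9727 genes were higher in cortex (11.3%) and 938 in hippocampus (9.64%). The numbers were close on both sides. A log2 difference of 1 or more was reached by 185 genes in cortex (1.9%) and 198 in hippocampus (2.04%), and one of 2 or more by 21 genes in cortex (0.216%) and 48 in hippocampus (0.493%). With hippocampus array 1 as the only hippocampus array, 20 genes in cortex and 28 in hippocampus were called with a difference of 2 or more, and 16 of the 21 and 27 of the 48 still differed by as much. In 39.4% of genes the cortex arrays and the hippocampus arrays did not overlap. The same held for 2687 of the 2779 called probes, so a lack of overlap adds little to a call. The median difference over all genes was 0.015 on the log2 scale and the median size of a difference 0.18. With 1 array left out at a time, between 1959 and 2618 probes were called. With hippocampus array 1 as the only hippocampus array, in a fit where that lone array was assumed to vary like the other groups, 946 probes were called, and 905 of those were among the 2779, all in the same direction. Over the genes tested, the first principal component of the 6 arrays held 67.9% of the variance and separated the regions.

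**Figure D1:**
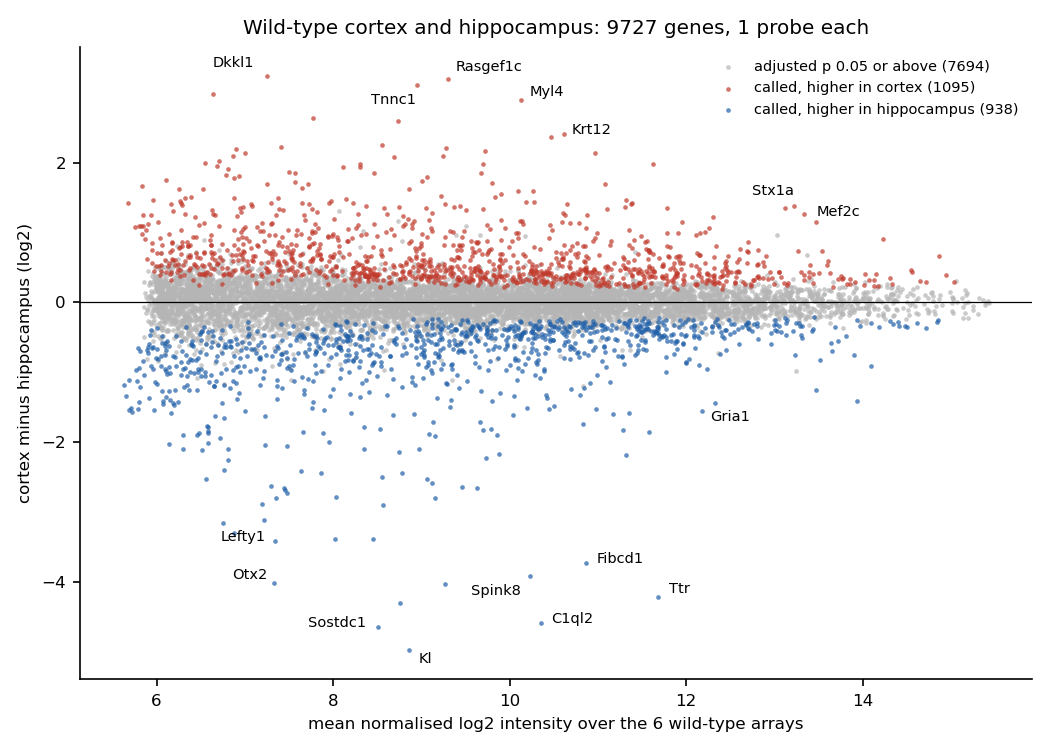
Difference between wild-type cortex and hippocampus (cortex minus hippocampus, log2, y axis) against the mean normalised log2 intensity over the 6 arrays (x axis), 1 point a gene. Of 9727 genes, 1095 were called higher in cortex (red) and 938 higher in hippocampus (blue). Genes below -4 include Kl, Sostdc1, C1ql2, Ecrg4, Ttr, Clic6 and Otx2. With hippocampus array 1 alone C1ql2 stays there, at -4.65, whereas the choroid plexus genes Kl, Sostdc1 and Ttr are at -2.80, -1.84 and -1.75. Ecrg4, Clic6 and Otx2 are then at -1.27, -0.95 and -1.31.

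The genes furthest on the cortical side that were detected in both regions were led by Rasgef1c, which encodes a predicted Ras guanine nucleotide exchange factor, and by genes of muscle-type proteins. Rasgef1c had normalised log2 values of 10.78, 10.97 and 10.94 on cortex arrays 1, 2 and 3 and 7.96, 7.66 and 7.49 on the hippocampus arrays. Its 6 values formed separate groups, a difference of 3.19 ± 0.14 (SE), or 9.15-fold (adjusted p = 2.5e-10). Tnnc1, the calcium-binding troponin C of heart and slow muscle, read 10.35, 10.65 and 10.52 in cortex and 7.57, 7.32 and 7.30 in hippocampus. Its difference was 3.11 ± 0.12, or 8.64-fold (adjusted p = 9.5e-11), with the arrays of each region close together. Myl4, an atrial myosin light chain, read 11.64, 11.49 and 11.61 against 8.65, 8.93 and 8.45, a difference of 2.90 ± 0.17 (adjusted p = 8.8e-09). Krt12, a keratin best known from the cornea, read 11.73, 11.92 and 11.80 against 9.53, 9.48 and 9.21. All cortex arrays of both genes were above all hippocampus arrays by more than 2 on the log2 scale.

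The other genes at the head of the cortical side had varied roles. They included Hspb3, a small heat shock protein (difference 2.64 ± 0.20), Igfbp6, which binds insulin-like growth factors (2.60 ± 0.40), and Rgs6, which shortens signalling by G proteins (2.22 ± 0.16). Medag (2.22 ± 0.14), Sowahb (2.16 ± 0.22), the matricellular protein gene Ccn4 (2.14 ± 0.15), the calcium-responsive copine gene Cpne9 (2.13 ± 0.15) and Rasgef1b (2.10 ± 0.18) followed. Sema3a, a secreted axon guidance cue, read 10.25, 10.42 and 10.19 in cortex and 8.47, 8.15 and 7.96 in hippocampus, a difference of 2.10 ± 0.15. Adjusted p-values of these genes ran from 2.5e-08 to 0.00024. The rule that chose these genes asked for arrays that did not overlap between regions. Some genes were detected on every cortex array and on no hippocampus array, so that only a lower limit can be given. Such genes passed the detection filter only through the region where they were high, so their calls and p-values add little. Of the 251 tested probes detected on no array of one region, 203 were called, against 19.6% of all probes. Dkkl1, a secreted relative of the Dickkopf Wnt antagonists, read 9.09, 8.74 and 8.78 in cortex and was at least 7.53-fold higher there (adjusted p = 3.4e-08). Cd6, a lymphocyte surface receptor, read 8.14, 8.09 and 8.17 and was at least 4.52-fold higher. Col24a1, a fibrillar collagen, was at least 3.01-fold higher and Ptges3l at least 2.6-fold.

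On the hippocampal side the largest differences that were even across arrays belonged to genes of the dentate gyrus and area CA1. C1ql2, a secreted synapse-organising protein of dentate granule cells, read 12.70, 12.41 and 12.81 on the hippocampus arrays and 8.64, 7.51 and 8.03 on the cortex arrays. Each hippocampus array was above each cortex array by more than 3 log2 units, a difference of -4.59 ± 0.25, or 24-fold higher in hippocampus (adjusted p = 4.4e-09). Fibcd1, a receptor with a fibrinogen-like domain that is known as a CA1 marker, read 12.79, 12.67 and 12.75 in hippocampus and 8.81, 9.30 and 8.89 in cortex. The difference was -3.73 ± 0.12, or 13.3-fold, and its adjusted p of 2.8e-11 was the smallest among the genes described here. Spink8, a protease inhibitor and another CA1 marker, read 12.16, 12.09 and 12.31 against 8.23, 8.43 and 8.14, a difference of -3.92 ± 0.26 (adjusted p = 4.7e-08). The hippocampus arrays were close to each other for all 3 genes, while the cortex arrays of C1ql2 spread over more than 1 log2 unit. Hippocampus array 1 did not differ from arrays 2 and 3 as it did for choroid plexus genes. With that array alone, C1ql2 differed by -4.65 (adjusted p = 4.4e-06), Fibcd1 by -3.79 (adjusted p = 4.6e-08) and Spink8 by -3.90 (adjusted p = 3.6e-05).

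Further along the hippocampal side stood the calcium-binding protein gene Cabp7 (-3.39 ± 0.30), the neuropeptide Y receptor gene Npy2r (-3.39 ± 0.35), the cytokine gene Il16 (-2.89 ± 0.15) and the monoamine transporter gene Slc29a4 (-2.80 ± 0.30). Il16 was nearly level across the hippocampus, at 10.00, 10.00 and 10.02, and read 6.90, 7.16 and 7.27 in cortex. Genes added after their values were seen, as the next in size, were Thsd4 (-2.65 ± 0.43), the desmosomal plakophilin gene Pkp2 (-2.64 ± 0.21), the neuropsin protease gene Klk8 (-2.59 ± 0.20), the calcium sensor gene Doc2b (-2.53 ± 0.27), St18 (-2.49 ± 0.21), Cachd1 (-2.44 ± 0.14), Olfml2b (-2.23 ± 0.18), the protocadherin gene Pcdh20 (-2.19 ± 0.12) and the growth factor gene Tgfb2 (-2.18 ± 0.15). Other genes were detected in hippocampus and on no cortex array, and so passed the filter through hippocampus alone. Among them was Lefty1, a secreted antagonist of Nodal signalling, which read 8.98, 9.08 and 9.09 and was at least 7.81-fold higher (adjusted p = 1.2e-10). Popdc3, a membrane protein of the Popeye family, was at least 6.46-fold higher, and Sln, the sarcolipin regulator of the muscle calcium pump, at least 5.45-fold.

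**Figure D2:**
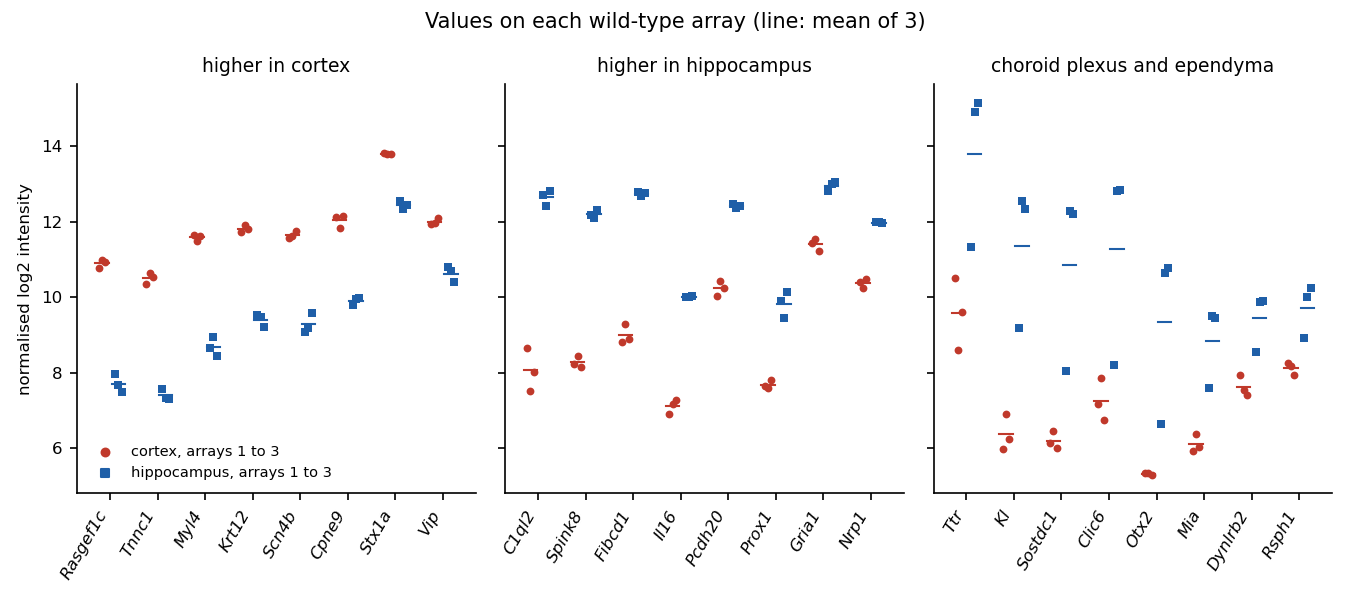
Normalised log2 intensity (y axis) of 24 genes on each of the 6 wild-type arrays, with cortex as red circles, hippocampus as blue squares, arrays in the order 1, 2, 3 from left to right and a line at the mean of 3. The genes of the left and middle panels form separate groups by region, and most of them were chosen for arrays that did not overlap. The cortex arrays of C1ql2 spread over more than 1 log2 unit. In the right panel hippocampus array 1 lies well below arrays 2 and 3.

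The promoters of 2 genes on each side are shown as examples of large regional differences that rested on every array. They were chosen after their values were seen. Each sequence runs 5′ to 3′ from 250 bases before to 50 bases after the gene's first listed start in RefSeq on GRCm38.p6, with letters in capitals where a motif was found. The motifs searched on both strands were GCGTGGGCG (EGR factors), TGACGTCA (the cyclic AMP response element), TGANTCA (AP-1) and the E-boxes CAGATG and CAGCTG.
Rasgef1c: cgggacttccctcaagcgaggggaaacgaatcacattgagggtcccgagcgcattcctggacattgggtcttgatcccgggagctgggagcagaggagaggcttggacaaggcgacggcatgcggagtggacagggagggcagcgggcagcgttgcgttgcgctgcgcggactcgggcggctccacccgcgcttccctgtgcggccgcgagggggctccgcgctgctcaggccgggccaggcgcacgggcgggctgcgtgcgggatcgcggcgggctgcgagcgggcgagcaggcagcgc
Tnnc1: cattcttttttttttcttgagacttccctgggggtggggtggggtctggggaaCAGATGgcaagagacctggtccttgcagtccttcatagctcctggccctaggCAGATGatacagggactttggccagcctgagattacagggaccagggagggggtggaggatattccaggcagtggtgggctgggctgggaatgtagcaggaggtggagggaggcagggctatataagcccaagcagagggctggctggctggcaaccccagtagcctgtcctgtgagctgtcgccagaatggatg
C1ql2: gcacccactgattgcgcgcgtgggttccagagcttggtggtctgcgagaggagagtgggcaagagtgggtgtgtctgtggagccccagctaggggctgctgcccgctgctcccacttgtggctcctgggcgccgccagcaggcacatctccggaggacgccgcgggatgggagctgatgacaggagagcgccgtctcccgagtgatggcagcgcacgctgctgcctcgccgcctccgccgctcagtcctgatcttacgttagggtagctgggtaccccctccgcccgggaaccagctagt
Fibcd1: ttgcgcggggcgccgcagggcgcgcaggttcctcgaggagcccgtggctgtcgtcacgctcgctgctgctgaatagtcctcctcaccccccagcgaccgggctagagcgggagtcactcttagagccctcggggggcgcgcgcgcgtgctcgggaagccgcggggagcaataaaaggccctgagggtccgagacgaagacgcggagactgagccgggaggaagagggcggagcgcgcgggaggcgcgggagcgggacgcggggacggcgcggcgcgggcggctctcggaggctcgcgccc
The Tnnc1 window, on the plus strand at chr14:31208062-31208361, held 2 copies of CAGATG. No motif was found in the Rasgef1c window (plus strand, chr11:49901585-49901884), the C1ql2 window (plus strand, chr1:120340332-120340631) or the Fibcd1 window (minus strand, chr2:31845956-31846255). Windows were given for 7914 of the 9727 genes tested. CAGATG was present in 11.4% of them, in 13.9% of the 137 windows of genes higher in cortex by 1 or more on the log2 scale, and in 14.8% of the 142 windows of genes higher in hippocampus by as much. For CAGCTG the 3 shares were 15%, 18.2% and 12%, for AP-1 4.86%, 2.92% and 7.04%, and for the cyclic AMP response element 3.21%, 3.65% and 3.52%. The EGR motif was in 1.15% of all windows, in 3 of the 137 and in 0 of the 142. The shares describe letters in these windows and were not tested.

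Gene lists are described by their counts and medians, to be read against 11.3% of all genes called higher in cortex, 9.64% called higher in hippocampus and a median difference of 0.015. A share near those of all genes is no result about a list. The counts include genes detected in one region alone, which passed the filter only through that region. The lists were drawn up with earlier results of these data known, so their counts are no independent evidence on a cell type. Of the 202 genes named in the text and called, 51 were not called with hippocampus array 1 alone, where fewer samples are compared, and in 20 the difference became over 1.5 times smaller. Those 20 are given with both values where they are described.

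All 8 tested choroid plexus genes were called higher in hippocampus, with a median difference of -4.03, or -3.64 with the gene detected in hippocampus alone at its lower limit. The size of these differences rested on hippocampus arrays 2 and 3. Ttr, the transthyretin carrier of thyroxine and retinol, read 11.32, 14.91 and 15.14 on hippocampus arrays 1, 2 and 3 and 10.50, 8.61 and 9.61 on the cortex arrays. Array 1 was less than 1 log2 unit above the brightest cortex array, and arrays 2 and 3 were more than 4 above it. Its difference of -4.22 ± 0.73 (adjusted p = 0.0007) became -1.75 with hippocampus array 1 alone (adjusted p = 0.1). Kl, the anti-ageing membrane protein klotho, read 9.17, 12.55 and 12.33 against 5.97, 6.89 and 6.23, and its difference of -4.98 ± 0.58 became -2.80 with array 1 alone (adjusted p = 1.9e-05). Sostdc1, a secreted antagonist of bone morphogenetic protein and Wnt signals, read 8.03, 12.27 and 12.21 against 6.13, 6.45 and 5.99, and its -4.65 ± 0.72 became -1.84 (adjusted p = 6.5e-05). Both genes kept the same side on every array but by a much smaller margin on hippocampus array 1. Clic6, a chloride channel protein, read 8.20, 12.82 and 12.83 against 7.16, 7.85 and 6.75, and with array 1 alone the difference of -4.03 ± 0.89 became -0.95 (adjusted p = 0.48). Otx2, a homeodomain factor that the choroid plexus keeps in adults, was detected on no cortex array and read 6.63, 10.63 and 10.77 in hippocampus, at least 9.54-fold higher. With array 1 alone its fitted difference was -1.31, against -4.02 with all arrays, its adjusted p was 0.0047, and 3 of the 8 genes were called.

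Genes outside the list that shared this uneven pattern were Ecrg4, at 7.87, 12.38 and 12.50 on the hippocampus arrays, Rdh5, a retinol dehydrogenase, at 7.11, 10.59 and 10.58, and Rbm47, an RNA-binding protein gene named after its values were seen, at 6.76, 9.86 and 9.89. On hippocampus array 1 each was about 1 log2 unit or less above the brightest cortex array. With that array alone the difference of Ecrg4 went from -4.31 ± 0.78 to -1.27 (adjusted p = 0.0048), that of Rdh5 from -2.79 ± 0.62 to -0.47 (adjusted p = 0.47) and that of Rbm47 from -2.41 ± 0.54 to -0.33 (adjusted p = 0.44). Lbp, the lipopolysaccharide-binding protein, was at 6.52, 9.64 and 9.76, and its -2.89 ± 0.57 became -0.77 (adjusted p = 0.16). Car12, a membrane carbonic anhydrase, was at 7.53, 9.35 and 9.49, and its -2.68 ± 0.46 became -1.43 (adjusted p = 0.12). Ependymal genes followed with smaller and less uneven differences. Of the 6 tested, 5 were called higher in hippocampus, and 4 were with array 1 alone (median difference -1.70, or -1.54 with the gene detected in hippocampus alone at its lower limit). Mia, a small secreted protein, read 7.59, 9.50 and 9.43 against 5.93, 6.36 and 6.03 in cortex, a difference of -2.73 ± 0.35 (adjusted p = 3.8e-05). Dynlrb2, a dynein light chain of cilia, read 8.53, 9.87 and 9.90 against 7.94, 7.54 and 7.39, and Rsph1, a protein of the ciliary radial spoke, 8.90, 10.01 and 10.24 against 8.26, 8.18 and 7.93. In all 3 genes hippocampus array 1 was between the cortex arrays and hippocampus arrays 2 and 3. With array 1 alone Mia differed by -1.48 (adjusted p = 0.00083), Dynlrb2 by -0.91 in place of -1.81 ± 0.27 (adjusted p = 0.029) and Rsph1 by -0.78 in place of -1.59 ± 0.25 (adjusted p = 0.054). Pifo, a cilium gene, was detected on no cortex array and was at least 2.81-fold higher in hippocampus, and its fitted difference of -2.11 became -0.84 with array 1 alone (adjusted p = 0.045).

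Most tested markers of cortical projection neurons were higher in cortex, in a list drawn up with earlier results of these data known. The list includes Myl4 and Krt12, which were also among the largest cortical differences above. Of the 9 tested, 8 were called higher in cortex and 0 in hippocampus, with a median difference of 1.26, and 6 were called with hippocampus array 1 alone. Beside Myl4 and Krt12, Ngef, a neuronal guanine nucleotide exchange factor, read 11.93, 11.93 and 11.92 in cortex and 10.18, 10.28 and 10.23 in hippocampus (difference 1.69 ± 0.10, adjusted p = 1e-08). Tbr1, a T-box factor of deep-layer glutamatergic neurons, read 11.42, 11.24 and 11.40 against 10.18, 9.91 and 9.73 (difference 1.41 ± 0.20, adjusted p = 0.00011). The regions did not overlap for either gene, and the same held for Mef2c, a transcription factor of neuronal maturation, at 1.26 ± 0.15. Differences were smaller for Vxn (0.73 ± 0.11) and for Lmo4, a LIM-domain cofactor (0.41 ± 0.09), both of which were bright in both regions.

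The markers of single cortical layers did not move as one. Among layer 2 and 3 genes, 6 of 9 were higher in cortex and 1 in hippocampus, with a median difference of 0.87. Stard8 (1.71 ± 0.14), the homeodomain factor genes Cux2 (1.24 ± 0.10) and Cux1 (0.78 ± 0.09), the activin subunit gene Inhba (0.94 ± 0.18) and the Ras exchange factor gene Rasgrf2 (0.87 ± 0.09) were all higher in cortex. Cux2 read 9.29, 9.50 and 9.45 on the cortex arrays and 8.25, 8.07 and 8.20 on the hippocampus arrays, a gap of more than 1 between the nearest arrays. Otof, whose product otoferlin is a calcium sensor for vesicle release, was detected in cortex alone and at least 2.17-fold higher there. Mdga1, an adhesion protein gene detected on no cortex array, was called the other way, at least 1.09-fold higher in hippocampus, and lost its call without cortex array 1, cortex array 3 or hippocampus array 3. Of 4 layer 4 genes, 2 were higher in cortex, the orphan receptor gene Rorb (1.04 ± 0.13) and the potassium channel gene Kcnh5 (1.79 ± 0.16). Scnn1a, a sodium channel gene detected on no cortex array, was called at least 1.28-fold higher in hippocampus and kept that call in 1 of the 6 fits that left out an array. Its fitted difference of -0.68 was -0.31 with hippocampus array 1 alone (adjusted p = 0.65).

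Layer 5 genes were split evenly, with 4 of 13 higher in cortex, 4 higher in hippocampus and a median difference of -0.073. The cortical ones were led by Pamr1 (1.38 ± 0.21) and Deptor, an inhibitor of mTOR (0.97 ± 0.11). On the other side were Crym, a thyroid hormone-binding crystallin, and Bcl11b, a zinc finger factor of subcerebral projection neurons that hippocampal neurons also express. Crym read 13.12, 13.04 and 12.96 in hippocampus and 11.57, 11.76 and 11.49 in cortex (difference -1.44 ± 0.27, adjusted p = 0.0012), and Bcl11b 12.73, 12.66 and 12.76 against 11.59, 11.97 and 11.72 (difference -0.96 ± 0.19, adjusted p = 0.0018). Neither gene overlapped between regions. Kcnn2, a calcium-activated potassium channel, was lower in cortex by the smaller difference of -0.55 ± 0.14. Layer 6 and subplate genes leaned to cortex, with 4 of 8 higher there and 1 higher in hippocampus (median 0.56). Foxp2, a forkhead factor, was detected in cortex alone and was at least 2.04-fold higher, and Rprm (0.89 ± 0.14) and the serotonin receptor gene Htr1f (0.81 ± 0.19) were higher too. Nr4a2, an orphan nuclear receptor gene (-0.83 ± 0.21), was higher in hippocampus and lost its call without cortex array 1.

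Of the 32 tested markers of the dentate gyrus and areas CA1, CA2 and CA3, 24 were called higher in hippocampus and 1 in cortex, and 25 had the lower value in cortex. In the dentate granule cell list 8 of 10 were higher in hippocampus and 0 in cortex, with a median of -0.88, or -0.77 with the gene detected in hippocampus alone at its lower limit. After C1ql2 and Il16 came Prox1, the homeodomain factor that specifies granule cells. It read 9.89, 9.46 and 10.13 in hippocampus and 7.65, 7.58 and 7.80 in cortex, 4.43-fold higher in hippocampus (adjusted p = 5.7e-08). Rfx3, a ciliogenesis factor, was at least 1.39-fold higher in hippocampus, and Ahcyl2 differed by -0.74 ± 0.11. For CA1, 7 of 8 were higher in hippocampus and 0 in cortex (median -1.14). Beside Fibcd1, Spink8 and Lefty1 these included Man1a, a Golgi mannosidase, at 9.04, 9.04 and 8.89 against 7.63, 7.79 and 7.48 (difference -1.36 ± 0.09), and Pou3f1, a POU-domain factor (-0.92 ± 0.14). With hippocampus array 1 alone, 6 dentate and 6 CA1 genes were called.

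In area CA2, 3 of 4 genes were higher in hippocampus. Amigo2, an adhesion protein, read 10.60, 10.55 and 10.38 in hippocampus and 9.01, 9.23 and 9.05 in cortex (difference -1.42 ± 0.12), and Rgs14, a limiter of CA2 plasticity in mice, 9.62, 9.81 and 9.44 against 8.34, 8.83 and 8.69 (difference -1.01 ± 0.16). The arrays of the regions did not overlap for either. CA3 genes were called higher in hippocampus in 6 of 10 cases and in cortex in 1, with a median of -0.53, and 3 were called higher in hippocampus with array 1 alone. Cpne7, a copine, and Iyd, which recovers iodide from iodotyrosines, were detected on no cortex array and were at least 3.63-fold and 2.58-fold higher. The kainate receptor subunit gene Grik4 (-0.78 ± 0.16), Cpne4 (-0.74 ± 0.15) and Trps1 (-0.59 ± 0.14) were also higher in hippocampus. Coch, an extracellular protein known from the inner ear, was the exception at 9.69, 10.09 and 9.87 in cortex against 7.72, 8.50 and 8.20 in hippocampus (difference 1.74 ± 0.18, adjusted p = 5.2e-06). Hippocampal genes with no single subfield were higher there in 2 of 3 cases, Cabp7 and Hpca, the calcium sensor hippocalcin (-0.90 ± 0.12). Calb2, which encodes calretinin and marks mossy cells in the mouse hilus as well as some interneurons, read 12.15, 12.08 and 12.36 against 10.09, 10.92 and 10.11 (difference -1.82 ± 0.28, adjusted p = 0.00022).

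Genes of newborn neurons were higher in hippocampus in 4 of 8 cases and in cortex in 1, and 4 of the 8 had the higher value in each region. Dcx, the doublecortin gene that is widely used to mark newborn neurons, was the one higher in cortex, at 9.28, 9.31 and 9.11 against 8.94, 8.67 and 8.85 (difference 0.41 ± 0.11, adjusted p = 0.016), and lost its call in 3 of the 6 fits that left out an array. Igfbpl1, found in immature granule neurons, was detected on no cortex array, read 7.35, 7.31 and 7.36 in hippocampus and was at least 2.39-fold higher (adjusted p = 1.9e-06). Eomes, a T-box factor of intermediate progenitors, was also detected in hippocampus alone, at least 1.29-fold higher. Tubb2b, a tubulin of young neurons, was bright in both regions and lower in cortex by a difference of -0.70 ± 0.13. The median of the list was -0.25 on the log2 scale, and -0.15 with the genes detected in hippocampus alone at their lower limits.

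Markers of regions next to the dissected tissue did differ between the groups. Of 14 striatal genes, 4 were higher in cortex and 0 in hippocampus, with a median of 0.76, and cortex array 2 was the highest array for the summed list. Drd1, the D1 dopamine receptor, read 9.60, 10.56 and 9.81 on cortex arrays 1, 2 and 3 and 8.68, 8.14 and 8.57 on the hippocampus arrays, a difference of 1.53 ± 0.32 (adjusted p = 0.0032). Scn4b, a sodium channel beta subunit that is also found in cortical neurons, read 11.57, 11.62 and 11.76 against 9.08, 9.17 and 9.58, with no such rise on array 2 (difference 2.37 ± 0.20). Ido1, a tryptophan-degrading enzyme, read 7.47, 8.72 and 7.80 against 5.27, 5.70 and 6.41, and its difference of 2.20 ± 0.52 was 1.84 without cortex array 2. Of 8 hypothalamic genes, 2 were called in each direction, and with 1 array left out the hippocampal count ran from 0 to 4. Without cortex array 2 the counts were 1 higher in cortex and 4 in hippocampus. Trh, thyrotropin-releasing hormone, read 6.79, 9.50 and 6.88 in cortex and was detected on no hippocampus array. The lower limit of 3.4-fold rested mostly on array 2, and the adjusted p of 0.047 became 0.23 without it. The call was also lost without any 1 hippocampus array (adjusted p from 0.092 to 0.11) and under 5 other settings (adjusted p from 0.063 to 0.092), namely another offset, no background correction, the z scores, no filter and a fit of the 6 arrays alone. Cartpt, a peptide precursor, was at 8.84, 9.89 and 9.45 against 7.50, 7.62 and 7.50 (difference 1.85 ± 0.26, adjusted p = 8.9e-05). Among 8 thalamic markers 2 were higher in each region: Ramp3 (1.41 ± 0.23) and Rora (0.85 ± 0.14) in cortex, and Prkcd (-1.88 ± 0.23) and Zic1 (-1.74 ± 0.28) in hippocampus. Of 2 claustrum genes, Gnb4 was higher in cortex (0.84 ± 0.14) and Lxn higher in hippocampus (-0.49 ± 0.13), which lost its call without cortex array 1 or hippocampus array 1.

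The lists of oligodendrocytes, astrocytes, microglia and vessels had medians between -0.19 and 0.15. Astrocyte genes were higher in hippocampus in 6 of 23 cases and in cortex in 0, with a median of -0.18. Gfap, the astrocyte intermediate filament, read 10.11, 10.02 and 9.83 in hippocampus and 8.30, 8.48 and 8.02 in cortex, 3.29-fold higher in hippocampus (adjusted p = 3.2e-07). Agt, angiotensinogen, read 8.83, 8.81 and 8.83 against 6.60, 7.64 and 6.61 (difference -1.87 ± 0.31), with cortex array 2 about 1 above the other cortex arrays. The water channel gene Aqp4 (-0.68 ± 0.17) and the astrocyte factor gene Sox9 (-0.53 ± 0.13) were higher in hippocampus as well. Of 17 myelin and oligodendrocyte genes, 2 were higher in hippocampus and 0 in cortex, among them Trf, transferrin (-0.68 ± 0.16, or -0.35 with hippocampus array 1 alone, adjusted p = 0.41), and 1 was without cortex array 2 or without hippocampus array 1. None of 8 oligodendrocyte precursor genes, 10 mural genes or 3 red cell genes was called. Olig1 differed by -0.17 ± 0.07 (adjusted p = 0.12), the growth factor receptor gene Pdgfra by -0.24 ± 0.14 (adjusted p = 0.28) and the pericyte gene Rgs5 by -0.33 ± 0.16 (adjusted p = 0.18). The microglial list held 1 called gene of 19, Laptm5, higher in cortex (0.48 ± 0.15, or 0.13 with hippocampus array 1 alone, adjusted p = 0.77), which lost the call without cortex array 2 or 3 or hippocampus array 2 or 3. Endothelial genes were called in 2 of 15 cases, Ly6c1 higher in cortex (0.40 ± 0.08) and Ramp2 higher in hippocampus (-0.57 ± 0.08), and the cortical count was 2 without cortex array 1 and the hippocampal one 2 without hippocampus array 1. In the meningeal and fibroblast list 2 of 9 were higher in hippocampus, the matrix proteoglycan genes Dcn, at 12.47, 12.78 and 12.25 against 10.38, 11.11 and 10.46 (difference -1.85 ± 0.27), and Lum (-1.38 ± 0.18).

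**Figure D3:**
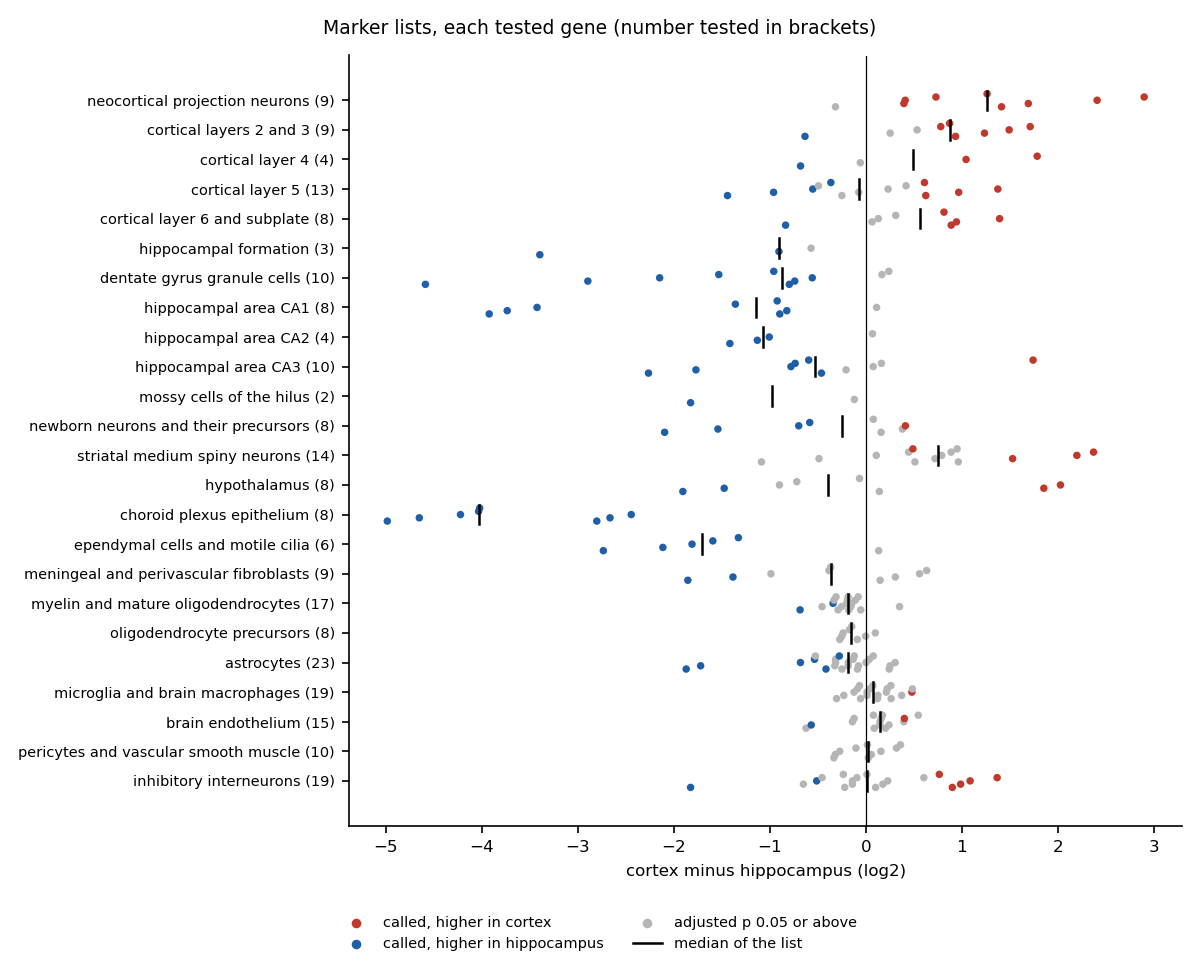
Difference (cortex minus hippocampus, log2, x axis) of every tested gene in each marker list (rows, number tested in brackets), with red and blue for genes called higher in cortex and in hippocampus, grey for the rest and a black line at the median. Genes detected in one region alone are drawn at their fitted difference. The median is 1.26 for cortical projection neurons, -1.14 for CA1 and -4.03 for choroid plexus, and runs from -0.19 to 0.15 for the oligodendrocyte, astrocyte, microglial and vascular lists.

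Interneuron genes were called higher in cortex in 5 of 19 cases and in hippocampus in 2, with a median of 0.012. Vip, vasoactive intestinal peptide, which marks a class of interneurons that inhibit other interneurons, read 11.93, 11.96 and 12.09 in cortex and 10.80, 10.68 and 10.39 in hippocampus (difference 1.37 ± 0.13, adjusted p = 1.4e-06). Npy, neuropeptide Y, read 12.70, 12.39 and 12.85 against 11.60, 11.55 and 11.83 (difference 0.99 ± 0.15), and Pvalb, the parvalbumin of fast-spiking cells, 13.06, 12.81 and 13.11 against 12.16, 12.28 and 12.24 (difference 0.77 ± 0.14). Each of the 3 was higher on every cortex array than on every hippocampus array. Crh, corticotropin-releasing hormone, and Chodl, a marker of long-range somatostatin cells, were detected in cortex alone, at least 1.26-fold and 1.29-fold higher. Of the 2 genes higher in hippocampus, Calb2 was described above, and Htr3a, an ion channel receptor for serotonin (-0.51 ± 0.13), lost its call without hippocampus array 2.

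The wider list of neuropeptides and granins also leaned to cortex. Of 21 tested, 11 were higher in cortex and 2 in hippocampus, with a median of 0.39, or 0.36 with genes detected in cortex alone at their lower limits. Adcyap1, which encodes the peptide PACAP, read 9.44, 9.44 and 9.41 against 8.05, 8.38 and 7.79 (difference 1.36 ± 0.16, adjusted p = 1.8e-05). With hippocampus array 1 alone 7 genes were called higher in cortex. Grp, gastrin-releasing peptide, ran the other way at 11.33, 11.38 and 10.91 in hippocampus and 9.78, 9.64 and 9.62 in cortex (difference -1.52 ± 0.20, adjusted p = 5.9e-05), and Gal, the galanin gene (-1.47 ± 0.46), also higher in hippocampus, lost its call in 5 of the 6 fits that left out an array.

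Genes of fast synaptic transmission differed gene by gene. Of 11 ionotropic glutamate receptor subunits, 3 were higher in hippocampus and 1 in cortex, with a median of -0.063. Gria1, a subunit of AMPA receptors, read 12.81, 12.99 and 13.06 in hippocampus and 11.42, 11.54 and 11.23 in cortex, 2.94-fold higher in hippocampus (adjusted p = 3.3e-06). Grik4 and Grin2a, a subunit of NMDA receptors (-0.60 ± 0.12), were on the same side, and Gria4, the 1 subunit higher in cortex (0.66 ± 0.17), lost its call without cortex array 3. Among 9 auxiliary subunits 3 were called in each direction. Cacng3, which traffics AMPA receptors, read 10.76, 10.71 and 10.70 in cortex and 9.56, 9.67 and 9.45 in hippocampus (difference 1.16 ± 0.11), and Cacng2, or stargazin, was higher in cortex too (0.90 ± 0.17, or 0.51 with hippocampus array 1 alone, adjusted p = 0.20). Cnih2, a cornichon that accompanies AMPA receptors, read 8.65, 8.45 and 8.60 in hippocampus against 7.35, 7.84 and 7.64 in cortex (difference -0.96 ± 0.20). The hippocampal count of 3 was 1 without cortex array 3 or without hippocampus array 2. Grm8, a presynaptic metabotropic receptor, was higher in cortex (0.88 ± 0.13), 1 of 2 tested.

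Postsynaptic scaffold and kinase genes were higher in cortex in 7 of 19 cases and in hippocampus in 1, Camk2b (-0.35 ± 0.10), whose call was lost without cortex array 1, cortex array 3 or hippocampus array 3. The median was 0.28. Camkk2, which activates the kinases CaMKI and CaMKIV, read 11.52, 11.45 and 11.55 against 10.18, 10.37 and 10.22 (difference 1.25 ± 0.14, adjusted p = 7.9e-06). The scaffold gene Homer1 (0.81 ± 0.10), Camk2g (0.69 ± 0.08) and Dlgap2 (0.58 ± 0.10) were also higher in cortex. In the vesicle and release machinery 13 of 37 genes were higher in cortex and 4 in hippocampus (median 0.20), and the cortical count was 8 without hippocampus array 3 and 4 with hippocampus array 1 alone. Stx1a, a SNARE of the presynaptic membrane, read 13.83, 13.79 and 13.79 in cortex and 12.56, 12.34 and 12.44 in hippocampus, 2.57-fold higher in cortex (adjusted p = 9.9e-07). Doc2a, a calcium sensor for spontaneous release, read 8.42, 7.91 and 7.98 against 6.53, 6.36 and 6.33 (difference 1.69 ± 0.16). Its relative Doc2b ran the opposite way at 10.41, 10.33 and 10.23 in hippocampus and 7.20, 8.67 and 7.51 in cortex (difference -2.53 ± 0.27, adjusted p = 6.3e-06). The active zone genes Rims3 (1.22 ± 0.15) and Rims2 (0.60 ± 0.12) and the SNARE gene Vamp1 (0.58 ± 0.10) were higher in cortex, and the synaptotagmin gene Syt17 (-0.75 ± 0.14) higher in hippocampus. Syt7, another synaptotagmin, was detected on no cortex array and at least 1.25-fold higher in hippocampus.

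Of 6 GABA receptor genes, 3 were higher in cortex and 1 in hippocampus, Gabrb1 (-0.59 ± 0.15), which lost its call without cortex array 1, cortex array 3 or hippocampus array 2. Gabrd, the delta subunit of extrasynaptic GABA-A receptors, read 10.84, 10.88 and 10.96 in cortex and 9.31, 9.09 and 9.51 in hippocampus, 3.01-fold higher in cortex (adjusted p = 1.3e-05). Gabra3, an alpha subunit, read 10.18, 10.38 and 10.32 against 9.10, 9.40 and 9.06 (difference 1.11 ± 0.20). Neither gene overlapped between the regions.

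Potassium channel genes formed one of the lists with many calls. Of 45 tested, 18 were higher in cortex and 5 in hippocampus, with a median of 0.35, and with hippocampus array 1 alone 11 and 2 were called. The hippocampal count fell to 1 without hippocampus array 1, to 2 without cortex array 2 or 3, and to 3 without cortex array 1 or hippocampus array 3. Kcnh5, of the ether-à-go-go family, read 7.95, 7.47 and 7.88 in cortex and 5.90, 6.19 and 5.84 in hippocampus (difference 1.79 ± 0.16, adjusted p = 1.1e-06). Kcnv1, a silent subunit that modifies other channels, read 10.57, 10.67 and 10.78 against 9.29, 9.15 and 8.94 (difference 1.55 ± 0.15). The beta subunit gene Kcnab3 (1.51 ± 0.21), the sodium-activated channel gene Kcnt1 (1.37 ± 0.21) and the leak channel gene Kcnk3 (1.24 ± 0.17) were all higher in cortex, without overlap. Calcium, sodium and HCN channel genes were called in both directions, 4 of 18 higher in cortex and 3 in hippocampus, and the cortical count was 2 without cortex array 2, cortex array 3, hippocampus array 2 or hippocampus array 3. Scn4b led in cortex, followed by the calcium channel beta subunit gene Cacnb4 (0.87 ± 0.09). Scn3b, a sodium channel beta subunit, read 10.99, 11.05 and 11.17 in hippocampus and 9.45, 10.12 and 9.66 in cortex (difference -1.32 ± 0.24), and Cacna1h, a low-threshold calcium channel, 11.45, 11.40 and 11.61 against 10.27, 10.51 and 10.21 (difference -1.16 ± 0.14). Cacnb2 was higher in hippocampus by a smaller difference of -0.50 ± 0.10.

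Immediate early genes, which neurons transcribe within minutes of activity, were higher in cortex in 13 of 21 cases and in hippocampus in 4, with a median of 0.51. The cortical count was 8 without cortex array 2, cortex array 3 or hippocampus array 1, and 5 with hippocampus array 1 alone, and the hippocampal count was 2 without cortex array 1. Egr2, a zinc finger factor, read 9.72, 9.71 and 9.61 in cortex and 7.60, 8.36 and 8.20 in hippocampus (difference 1.63 ± 0.30, adjusted p = 0.0011). Nptx2, a secreted pentraxin that gathers AMPA receptors, read 10.93, 11.47 and 11.11 against 9.90, 9.94 and 10.21 (difference 1.15 ± 0.13, adjusted p = 1.1e-05). Fos read 10.81, 11.18 and 11.01 against 9.38, 9.89 and 9.41 (difference 1.44 ± 0.41, adjusted p = 0.021), which became 0.068 without cortex array 2. Although the regions did not overlap for Fos, its call was lost in 4 of the 6 fits that left out an array. Arc, a regulator of AMPA receptor endocytosis, differed by 1.13 ± 0.31 (adjusted p = 0.018). It lost its call without cortex array 2, cortex array 3 or hippocampus array 1 (adjusted p from 0.0502 to 0.067). Npas4, a factor induced by calcium entry, differed by 1.30 ± 0.36 (adjusted p = 0.018). Its call was lost without the same arrays (adjusted p from 0.058 to 0.089). Against that direction, Jun, a partner of Fos, read 10.33, 10.14 and 10.48 in hippocampus and 8.97, 9.07 and 9.10 in cortex (difference -1.27 ± 0.11, adjusted p = 5.6e-07). Nr4a3, an orphan nuclear receptor, was detected on no cortex array and at least 1.83-fold higher in hippocampus.

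Receptors for monoamines, acetylcholine and histamine were called in both directions, 4 of 21 higher in cortex and 5 in hippocampus. Hrh3, a histamine autoreceptor, was higher in cortex (1.00 ± 0.16), as were Drd1 and Htr1f. Htr5b, a serotonin receptor, read 8.31, 8.35 and 8.07 in hippocampus and 6.13, 6.66 and 5.84 in cortex (difference -2.04 ± 0.17, adjusted p = 4.4e-07). Htr1a, the main inhibitory serotonin receptor, read 9.77, 9.50 and 9.31 against 8.68, 8.62 and 8.60 (difference -0.90 ± 0.14). Drd5, a D1-like dopamine receptor, and Chrna5, a nicotinic subunit, were detected on no cortex array and at least 1.82-fold and 1.26-fold higher in hippocampus. In the corticosteroid list 1 of 13 was higher in cortex and 2 in hippocampus. Fkbp5, a chaperone of the glucocorticoid receptor and one of its targets, was higher in hippocampus (-0.73 ± 0.17, adjusted p = 0.0065). Per1, a clock gene higher in cortex (0.48 ± 0.12), and Hsd11b1, which regenerates active glucocorticoids and was higher in hippocampus (-0.55 ± 0.17), each lost the call with 1 array left out, Per1 without cortex array 3 or hippocampus array 3, and the hippocampal count was 1 in 5 of the 6 such fits.

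Axon guidance, one of the longer lists, was the functional list with the most calls on the hippocampal side, 13 of 41, against 7 in cortex (median -0.091). Its hippocampal share of 31.7% was below the 33.3% of the auxiliary subunits of glutamate receptors. Nrp1, a co-receptor for class 3 semaphorins, read 11.99, 11.98 and 11.95 in hippocampus and 10.40, 10.23 and 10.48 in cortex, 3.04-fold higher in hippocampus (adjusted p = 1.6e-08). Sema5a, a transmembrane semaphorin, read 11.77, 11.53 and 11.92 against 10.25, 10.12 and 10.26 (difference -1.53 ± 0.11, adjusted p = 9e-08). Its direction was opposite to that of the secreted Sema3a, a ligand of Nrp1, which was higher in cortex. Ephrin receptors divided as well. Epha6 (-1.22 ± 0.16), Epha7 (-0.99 ± 0.12) and Epha3 (-0.92 ± 0.20) were higher in hippocampus, whereas Ephb6 (1.12 ± 0.19) and the ligand gene Efna5, at 12.13, 11.89 and 12.11 against 10.63, 10.87 and 10.25 (difference 1.46 ± 0.20), were higher in cortex. Sema4a (0.92 ± 0.11) and Sema7a (0.66 ± 0.13) were also higher in cortex.

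Cadherins and protocadherins are homophilic adhesion molecules with regional patterns of expression. Of 23 tested, 7 were higher in cortex, or 4 without cortex array 1, and 3 in hippocampus. Cdh7 read 8.48, 8.48 and 8.53 in cortex and 7.15, 6.71 and 6.05 in hippocampus (difference 1.86 ± 0.20, adjusted p = 6.7e-06), and Cdh22 (1.27 ± 0.12), Cdh6 (1.13 ± 0.24) and Pcdh10 (1.05 ± 0.12) were on the same side. Pcdh20 read 12.47, 12.35 and 12.42 in hippocampus and 10.03, 10.43 and 10.23 in cortex, 4.55-fold higher in hippocampus (adjusted p = 3.9e-09), and Cdh8 was higher there too (-0.62 ± 0.13). In the Wnt list 4 of 29 were higher in cortex and 6 in hippocampus, or 3 in hippocampus without hippocampus array 1. Wnt10a, a secreted ligand, read 10.06, 9.78 and 10.10 in cortex and 8.56, 8.65 and 8.47 in hippocampus (difference 1.41 ± 0.22), and the receptor gene Fzd3 was higher in cortex by 0.50 ± 0.10. The receptor gene Fzd7 (-1.24 ± 0.18), the ligand gene Wnt7a (-0.74 ± 0.17) and Nkd2, an inhibitor of the pathway (-1.11 ± 0.12), were higher in hippocampus. For Fzd7, hippocampus array 1 at 8.12 was below arrays 2 and 3 at 8.80 and 8.94, and with it alone the difference was -0.74 (adjusted p = 0.03). Of 14 matrix genes, 2 were higher in cortex, Nptx2 and the proteoglycan gene Cspg5 (0.55 ± 0.11), and 0 in hippocampus. The cortical share of 14.3% is near that of all genes.

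Transcription factors separated the regions in both directions, 6 of 28 homeodomain genes each way. Otx1, made in deep layers of the cortex, read 10.61, 10.23 and 10.57 against 9.46, 9.68 and 9.62 (difference 0.88 ± 0.18), and Tshz3 (0.79 ± 0.17) and the Cux genes were also higher in cortex. On the hippocampal side were Prox1, Pou3f1, Otx2 and Zeb2, a repressor of epithelial genes (-0.90 ± 0.14). Lhx9, a LIM homeodomain factor, was detected on no cortex array and at least 1.34-fold higher in hippocampus. Of 21 basic helix-loop-helix and Id genes, 4 were higher in cortex and 3 in hippocampus, and these counts ran from 1 to 4 and from 1 to 5 with 1 array left out, the cortical one being lowest without cortex array 3 and the hippocampal one highest without hippocampus array 1. The clock-related factor gene Npas2 was higher in cortex (0.79 ± 0.15), and Neurod6, a factor of pyramidal neurons, was detected on no cortex array and at least 1.69-fold higher in hippocampus.

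Calcium-binding proteins were called in 9 of 21 cases, 5 higher in cortex and 4 in hippocampus. Necab3 read 9.47, 9.07 and 9.36 in cortex and 7.29, 7.46 and 7.18 in hippocampus (difference 1.99 ± 0.15, adjusted p = 1.8e-07), and its relative Necab2 read 9.87, 9.78 and 9.93 in hippocampus and 8.07, 9.21 and 8.20 in cortex, with cortex array 2 nearest to the hippocampus (difference -1.37 ± 0.24). The cortical count was 3 without cortex array 1 or hippocampus array 2 and 2 without cortex array 3. Genes of cyclic AMP signalling, regulators of G protein signalling (RGS) and kinases A and C leaned to cortex, 11 of 43 higher there and 2 in hippocampus (median 0.15), and 6 and 2 with hippocampus array 1 alone. Rgs4, bright in cortex, read 14.11, 13.79 and 13.82 against 12.55, 12.65 and 12.38 (difference 1.38 ± 0.14, adjusted p = 4.3e-06). Prkar1b, a regulatory subunit of protein kinase A (0.96 ± 0.10), and the phosphodiesterase genes Pde7b (0.73 ± 0.18) and Pde4d (0.68 ± 0.11) were higher in cortex. Prkcd, a protein kinase C, read 9.85, 10.06 and 10.18 in hippocampus against 7.89, 8.57 and 7.99 in cortex, opposite to the lean of the list. In contrast to these lists, the 69 tested subunits of oxidative phosphorylation differed little. None was called higher in cortex and 2 were in hippocampus, with a median of -0.087 and a share of calls of 2.90%. Without hippocampus array 2 or 3 the count was 0, and without any 1 cortex array it was 1.

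**Figure D4:**
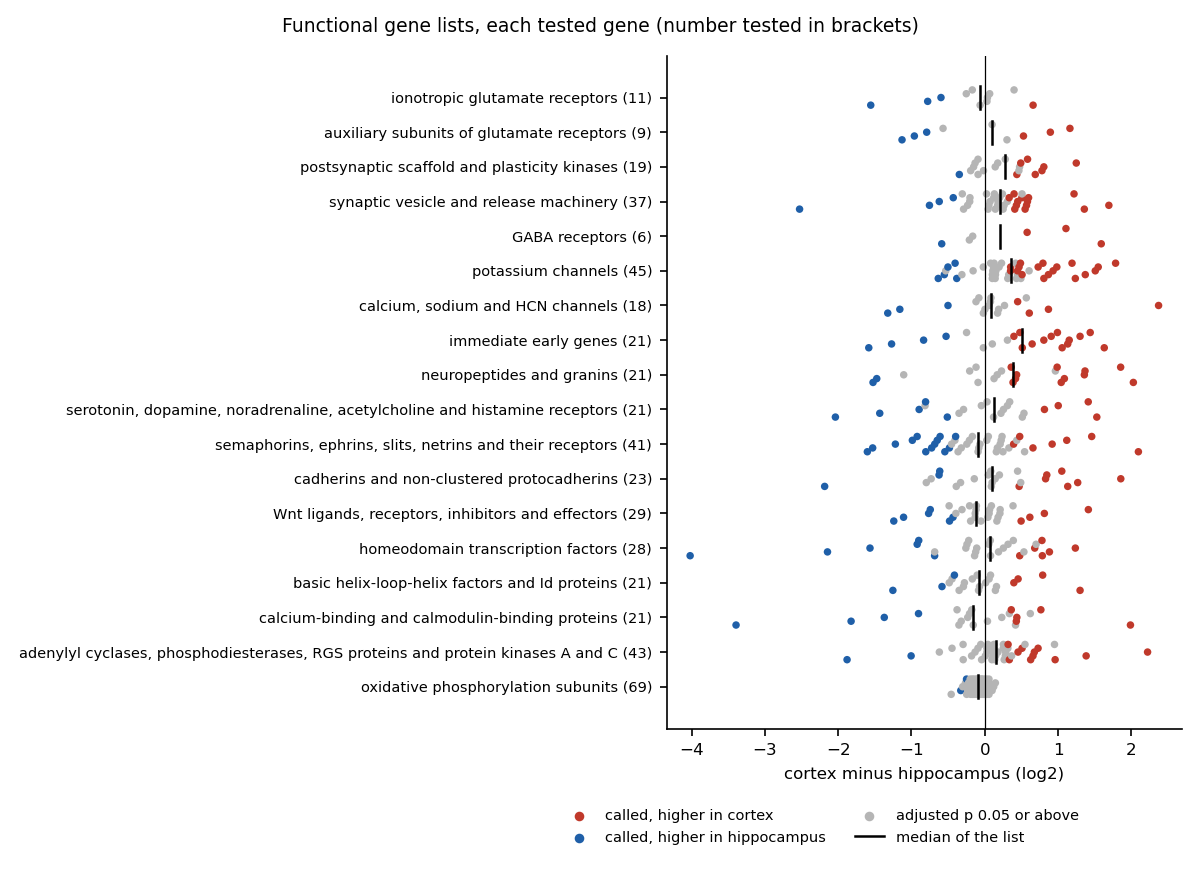
Difference (cortex minus hippocampus, log2, x axis) of every tested gene in each functional list (rows, number tested in brackets), coloured as called higher in cortex (red), called higher in hippocampus (blue) or neither (grey), with a black line at the median. Genes detected in one region alone are drawn at their fitted difference. Medians run from 0.51 for immediate early genes to -0.16 for calcium-binding proteins, most lists hold calls in both directions, and oxidative phosphorylation subunits cluster near 0.

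Other probes of the same genes gave a check within the arrays. Of the 516 called genes with more than 1 tested probe, 299 had another probe called in the same direction, and 485 had all other probes on the same side of 0. In 1 gene, Eef1d, a translation elongation factor named after its values were seen, another probe was called in the opposite direction. The brightest Eef1d probe differed by -0.25 (adjusted p = 0.044), or -0.15 with hippocampus array 1 alone. Its call was lost in 5 of the 6 fits that left out an array and under the z scores, the fit of the 6 arrays alone and the replicate block (adjusted p from 0.051 to 0.19).

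The knockout arrays came from other animals. Of the genes named, only Padi6 was chosen through them, by the test between genotypes. They also entered the normalization and the estimate of the spread behind the wild-type calls, so they are not a fully separate check. The Tas1r3 probe gave no check of the genotype labels. It was detected on 1 of the 6 wild-type and 0 of the 6 knockout cortex and hippocampus arrays, with linear signals of 112 to 152 and 112 to 132. Between knockout cortex and knockout hippocampus 2756 of the 14153 probes were called (19.5%), and 1997 of 9727 genes (20.5%): 1060 genes higher in cortex (10.9%) and 937 in hippocampus (9.63%). Of the 1095 genes higher in wild-type cortex, 1068 (97.5%) differed in the same direction in the knockout and 737 were called there. Those 737 were 67.3% of the wild-type calls and 69.5% of the knockout calls. Of the 938 genes higher in wild-type hippocampus, 916 (97.7%) kept the direction and 629 were called, 67.1% of each list. No gene was called in opposite directions. Among genes with a log2 difference of 1 or more in wild type, 172 of 185 cortical genes (93.0%) and 178 of 198 hippocampal genes (89.9%) were called in the knockout. All 18 arrays entered one fit, so the contrasts share their estimate of the spread but no cortex or hippocampus array.

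The leading genes differed in the same direction in the knockout. Rasgef1c differed there by 3.48 ± 0.14, Tnnc1 by 2.74 ± 0.12, C1ql2 by -3.87 ± 0.25, Fibcd1 by -3.12 ± 0.12 and Spink8 by -3.96 ± 0.26. Choroid plexus genes were also higher in knockout hippocampus, with 8 of 8 called, Ttr at -4.76 ± 0.73 and Kl at -4.84 ± 0.58. The knockout arrays were not examined singly for markers of neighbouring tissue. In the knockout 7 of 9 cortical projection neuron genes were higher in cortex, and 8 of 10 dentate, 6 of 8 CA1, 1 of 4 CA2 and 7 of 10 CA3 genes higher in hippocampus. Myelin genes, 2 of 17 in wild type, were called higher in knockout hippocampus in 11 cases, and immediate early genes, 13 of 21 in wild type, were called higher in knockout cortex in 7. The test of the regional difference itself between genotypes called none of these genes. It called 1 of 14153 probes (0.00707%), that of Padi6, a peptidylarginine deiminase known from the oocyte. Loss of T1R3 and other inherited differences of the knockout line cannot be told apart here. Padi6 read 6.41, 6.26 and 6.49 on the wild-type cortex arrays and was detected on no wild-type hippocampus array, at least 1.35-fold higher in cortex. It was detected on 0 of the 6 knockout cortex and hippocampus arrays, so no difference is given there. The number of probes called by that test was between 1 and 114 with 1 array left out, 114 without knockout cortex array 1, 6 without wild-type cortex array 2 and 2 without knockout cortex array 2.

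**Figure D5:**
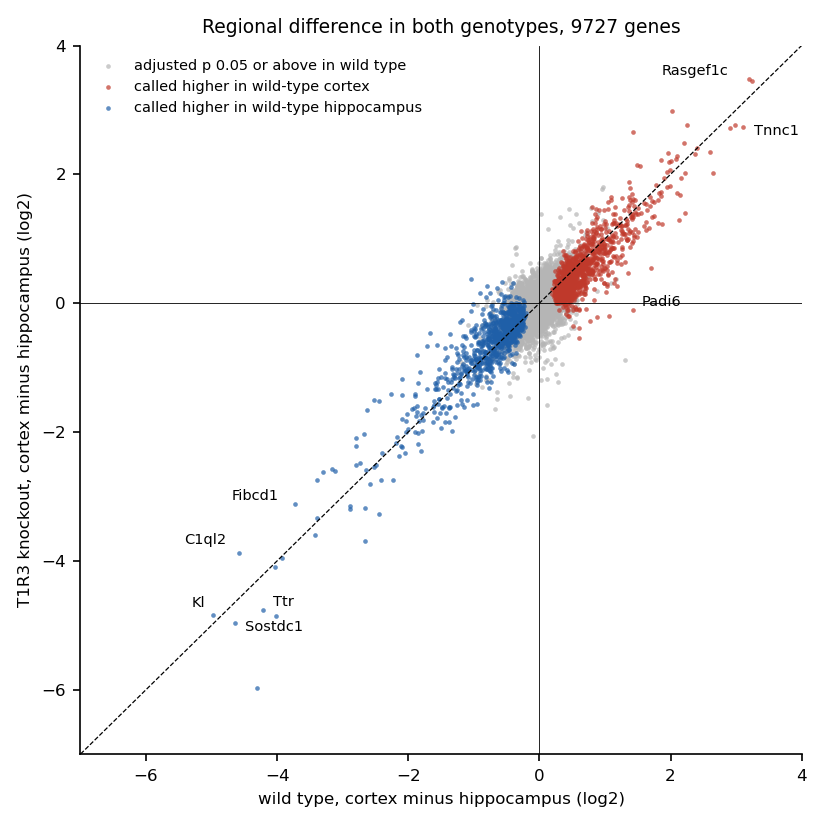
Difference between cortex and hippocampus (cortex minus hippocampus, log2) in wild type (x axis) and in T1R3 knockout (y axis), 1 point a gene, coloured by the wild-type call, with a dashed line where both are equal. Of the genes called in wild type, 97.5% of the cortical and 97.7% of the hippocampal ones lie on the same side of 0 in the knockout, and Padi6 is the gene whose regional difference was called as differing between genotypes.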

How the data were processed

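RNA of 1 brain region was measured on each of 18 Illumina arrays. The deposited table holds, per the file headers, a linear intensity for every probe on every array, without normalization, and its detection p-value. The submitters' processing notes name GenomeStudio 2011.1. Slides, scan dates and any earlier background treatment were not given in the sources used here. No batch could be examined. The deposited z score of each probe, the authors' own processed value, served as an alternative. Probes were named from the platform annotation, with symbols updated through RefSeq.

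The intensities were background-corrected through the detection p-values, quantile-normalized and log2-transformed with neqc (limma 3.58.1, R 4.3.3, offset 16) over all 18 arrays. These log2 values differ from the deposited intensities, which are linear, and from the deposited z scores. A limma fit with a mean for each of the 6 groups (12 residual degrees of freedom) gave the contrast cortex minus hippocampus, its knockout counterpart and the difference of both. P-values are two-sided and adjusted by Benjamini-Hochberg over the 14153 probes, with a threshold of 0.05. Every adjusted p printed is limma's. A difference is given ± SE, and the number of arrays limits its precision. Each gene is represented by its tested probe of highest mean level. For a gene detected on no array of one region, "at least N-fold" divides the brighter mean by the mean floor of the dim arrays, each array's floor being its dimmest detected probe or, if brighter, the gene's own probe. Levels of different probes are not compared.

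Groups came from the sample titles. The replicate numbers follow the titles, and p-values measure the spread between these animals. The samples, gene lists and rules were chosen with earlier results of these data known. The genes named were drawn from the 15 largest differences in each direction without overlap and the 5 largest lower limits in each direction. Further sources were up to 5 called members of each list in each direction (or up to 2 of smallest p). The last were the 3 brightest members of each cortical or hippocampal marker list and the 5 smallest p-values of the test between genotypes. Not every gene that these rules chose is named, and some bright members of marker lists are left out. Of the 5 from the test between genotypes, only Padi6 is named. Members of the lists whose calls changed with 1 array left out are mostly given as counts. In simulated data for the wild-type comparison, 90% of 100 probes shifted by 1 on the log2 scale and 42% of 100 shifted by 0.5 were recovered over 14153 probes, and 8.33% of calls were false. Sequences are from RefSeq. Python 3.11.15, pandas 2.3.3 and matplotlib 3.10.9 were used for tables and figures.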

Additional observations from a re-analysis of the deposited data

Results flagged for a closer look

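Padi6 was the single probe of 14153 called by the limma test of the regional difference between genotypes (adjusted p = 0.00015). It was detected on all 3 wild-type cortex arrays, at 6.41, 6.26 and 6.49, on no wild-type hippocampus array, where it read 4.97, 4.95 and 4.97, and on 0 of the 6 knockout cortex and hippocampus arrays. The fitted value of that test, wild type minus knockout, was 1.54 on the log2 scale, but 3 of the 4 groups it compares were not above background, so it is no measured size, and the wild-type difference is known only as at least 1.35-fold. The probe was not tested, and the number called was 0, when probes had to be detected on all 6 wild-type arrays. The design cannot tell loss of T1R3 from other inherited differences of the knockout line.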

How the results depend on the processing

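The count of 2779 probes stayed between 2423 and 2976 under another offset, no background correction, the authors' z scores, no filter or a stricter one, a fit of the 6 arrays alone and the replicate block, and each shared 78.3% or more of the 2779 calls in the same direction. A log2 difference of 1 or more left 502. With hippocampus array 1 as the only hippocampus array, chosen after seeing the data, 946 were called (491 in cortex, 455 in hippocampus), and with cortex array 2 left out as well 844 (421 and 423), where fewer samples are compared. Calls in the gene lists went from 272 to 148 and 137. In the knockout, 2756 became 1321 (642 and 679) in a fit of its 6 arrays alone. The cause was not tested. The count between genotypes was 0 with probes detected on all 6 arrays, in limma, where 728 probes had an unadjusted p under 0.05, and ran from 1 to 114 with 1 array left out. Same-numbered arrays did not deviate together in every pair (correlations 0.016, 0.14 and -0.032 in wild type and -0.16, 0.32 and -0.074 in the knockout). With 3 arrays a group these correlations cannot decide whether the numbers pair the samples, and the labels give the numbers no meaning. The replicate block gave 2976 and, in the knockout, 2927 calls. Slides are not given, 3 animals a group limit every interval, and dim genes have lower limits alone.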
